A study of Homo sapiens with 24 samples.

Results

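SOX9, KRT19 and CD68 are genes best known from other liver cell types than the hepatocyte: SOX9 and KRT19 mark bile duct and progenitor cells, and CD68 is a common stain for macrophages. Their transcript levels were followed in HepG2, a human hepatoma line that keeps many hepatocyte traits, after BRD8518, oncostatin M (OSM) or the DMSO vehicle. The 3 genes were chosen by their responses in an earlier look at a short list of such markers on these same arrays, and they are 3 of 14884 genes measured. The 3 genes are described here with standard errors and without p-values, because they cannot be tested on the arrays that picked them. Other genes carry adjusted p-values from a test over all genes. Apart from fixed marker checks, genes named from a list were the largest changes that passed that test. Their p-values are therefore not evidence apart from that choice.

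SOX9 is a DNA-binding factor of the HMG-box family that marks the ductal plate and biliary cells and is raised by Notch and YAP signals in liver. KRT19 is an acidic keratin of the intermediate filaments of duct epithelium, low or absent in normal hepatocytes. CD68 is a heavily glycosylated protein of late endosome and lysosome membranes, related to the LAMP proteins. It is abundant in macrophages but is also made by other cells rich in lysosomes.

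BRD8518 is a compound that the labels name by code alone, and it was given at 1 uM. Its groups held 3 arrays at 1 h, 2 at 6 h and 3 at 24 h. OSM, a cytokine of the interleukin-6 family, was given at 100 ng/mL, with 3 arrays each at 1 h and 24 h, and 6 h of OSM was not analysed here. The DMSO controls had 3 arrays at 1 h, 4 at 6 h and 3 at 24 h. All cells were the same line, plated at 10000 per well, and all wells held 0.25% DMSO, those with OSM included. Nothing in the labels says that arrays of a group came from separate cultures, so errors and p-values measure the spread between arrays, which may be technical.

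Of the 3 genes, only CD68 matched the promoter table, so its promoter alone is shown. The sequence covers chr17:7579388-7579687 of GRCh38.p14 on the plus strand, which is 250 bases before to 50 bases after the start of the gene in RefSeq. Capitals mark the match to the AP-1 motif.
CD68: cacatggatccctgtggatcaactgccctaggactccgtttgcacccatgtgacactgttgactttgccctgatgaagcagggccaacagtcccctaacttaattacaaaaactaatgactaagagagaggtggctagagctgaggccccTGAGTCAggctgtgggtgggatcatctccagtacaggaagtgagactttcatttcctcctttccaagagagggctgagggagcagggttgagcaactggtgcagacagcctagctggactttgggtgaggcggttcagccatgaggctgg
The motif searched was TGANTCA on both strands, and its match TGAGTCA begins 100 bases before the start. This motif occurs in 7.71% of the 35116 promoters of the same length. No match was found in this window for the STAT motif TTCNNNGAA (present in 7.66% of promoters), the E-box CACGTG (7.26%), the TEAD motif GGAATG (14%), the SP1 motif GGGCGG (45%) or the TATA motif TATAAA (11.5%). These matches describe letters, not binding.

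Levels are RMA values on a log2 scale, 1 probe set for each of the 3 genes, and a change is a difference of group means on that scale. Array medians over 53617 probe sets ran between 4.89 and 4.95, which gives a reading of where the scale is dim. RMA values carry no detection call, and levels of different genes are not set against each other because probe sets differ in affinity. Over all genes the typical SE of such a change was 0.11 to 0.12 (medians), and the number of arrays limits the precision. On its correlation with the other arrays of its group, DMSO 6 h replicate 2 stood apart. Its mean r was 0.977, against 0.988 to 0.990 for the other DMSO 6 h arrays and at least 0.995 in every other group. The 6 h changes of the 3 genes are therefore also given without it, while the 6 h changes printed for other genes include it. Since each array reads RNA from a whole well, a change in the share of cells that express a gene and a change in RNA per cell cannot be told apart.

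SOX9 was high at the early time with BRD8518 and at the late time with OSM. At 1 h its level was 10.98, 10.95 and 10.94 on the BRD8518 arrays, 10.76, 10.85 and 10.77 on the OSM arrays, and 10.71, 10.64 and 10.71 on the DMSO arrays. All 3 BRD8518 arrays lay above all OSM and DMSO arrays, and all 3 OSM arrays lay above DMSO. The change was 0.27 with BRD8518 (SE 0.06, 1.21-fold) and 0.11 with OSM (SE 0.06, 1.08-fold). At 1 h few genes passed the test with BRD8518, 0.222% higher and 0.0336% lower, while 7.97% of genes had all BRD8518 arrays above all DMSO arrays. With OSM at 1 h these shares were 2.03% higher, 0.813% lower and 11.6% with all arrays above. The 121 genes lower with OSM became 55 without OSM replicate 1, 70 without OSM replicate 3, 53 without DMSO replicate 1 and 55 without DMSO replicate 3, and array weights gave 579 higher and 546 lower. A larger rise than that of SOX9 was measured for 2.31% of genes with BRD8518 at 1 h.

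At 6 h SOX9 stood at 10.69 and 10.66 on the BRD8518 arrays, against 10.69, 10.65, 10.64 and 10.66 on the DMSO arrays. The groups overlapped, with a change of 0.02 (SE 0.06) and of 0.01 without DMSO 6 h replicate 2. When arrays were centred on the median of the tested genes, a setting chosen after seeing the data, the change became 0.09 and both BRD8518 arrays lay above DMSO.

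At 24 h SOX9 was 10.69, 10.69 and 10.64 with BRD8518, 10.94, 10.95 and 10.94 with OSM, and 10.73, 10.75 and 10.72 with DMSO. The OSM arrays lay above all others and differed among themselves by about 0.01, with a mean of 10.95 ± 0.01 (SD, n = 3) and a change of 0.21 against DMSO (SE 0.06, 1.16-fold). A larger rise was measured for 10.7% of genes with OSM at 24 h. The BRD8518 arrays lay below DMSO, by -0.06 (SE 0.06), a gap about as large as its own error. That order turned into overlap when values were quantile normalized again or centred on the tested genes, as did the order of OSM over DMSO at 1 h under quantile normalization. Between the agents at 24 h the difference, BRD8518 minus OSM, was -0.28 (SE 0.06). The BRD8518 change at 24 h minus that at 1 h was -0.33 (SE 0.08), with the early difference absent at the later time.

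KRT19 stood clear of its DMSO level in 1 group, BRD8518 at 24 h. At 24 h it was 8.83, 8.97 and 8.91 with BRD8518, 7.76, 7.88 and 7.96 with OSM, and 7.88, 7.81 and 8.09 with DMSO. The BRD8518 arrays lay above every other array of the series, and the OSM and DMSO arrays overlapped. The BRD8518 change was 0.97 (SE 0.10, 1.96-fold), and the OSM change was -0.06 (SE 0.10). At 24 h with BRD8518, 12.1% of genes passed the test higher and 15.6% lower, 19.8% had all BRD8518 arrays above all DMSO arrays, and 24.4% had all of them below. A larger rise than that of KRT19 was measured for 2.0% of genes.

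Earlier values of KRT19 gave little sign of that difference. At 1 h it read 7.79, 8.03 and 7.93 with BRD8518, 7.94, 7.99 and 7.97 with OSM, and 8.02, 7.96 and 7.85 with DMSO. All 3 groups overlapped, with changes of -0.03 for BRD8518 and 0.02 for OSM (SE 0.10 each). At 6 h it read 8.09 and 8.11 with BRD8518, against 7.87, 8.20, 7.81 and 8.0 with DMSO, a change of 0.13 (SE 0.10). The 8.20 belonged to DMSO 6 h replicate 2, the array that stood apart. Without it the change was 0.21 and both BRD8518 arrays lay above the remaining DMSO arrays. The BRD8518 change at 24 h exceeded that at 6 h by 0.84 (SE 0.14).

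CD68 stood higher at each later time under BRD8518, and higher under OSM at 24 h by a smaller amount. At 1 h it was 9.48, 9.74 and 9.55 with BRD8518, 9.59, 9.58 and 9.55 with OSM, and 9.58, 9.60 and 9.61 with DMSO. The groups overlapped, and the changes were 0.00 with BRD8518 and -0.03 with OSM (SE 0.08 each).

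At 6 h CD68 was 10.02 and 10.13 with BRD8518, against 9.44, 9.56, 9.66 and 9.61 with DMSO. Both BRD8518 arrays were above all DMSO arrays, with a change of 0.51 (SE 0.08, 1.42-fold) and the same 0.51 without DMSO 6 h replicate 2. At this time 5.62% of genes passed the test higher with BRD8518 and 8.86% lower (836 and 1319 genes), and 11.9% had both BRD8518 arrays above DMSO. Centring on the tested genes turned that split to 1309 higher and 943 lower. Without DMSO 6 h replicate 2 it was 1163 higher and 2182 lower. A larger rise than that of CD68 was measured for 3.23% of genes.

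At 24 h CD68 was 10.79, 10.77 and 10.75 with BRD8518, 9.84, 9.97 and 9.94 with OSM, and 9.45, 9.60 and 9.68 with DMSO. The 3 groups did not overlap: BRD8518 was highest, OSM lay between, and DMSO was lowest. The change was 1.19 with BRD8518 (SE 0.08, 2.29-fold) and 0.34 with OSM (SE 0.08, 1.26-fold), and BRD8518 minus OSM was 0.86 (SE 0.08). A larger rise was measured for 1.31% of genes with BRD8518 and for 4.68% with OSM. With OSM at 24 h 4.6% of genes passed the test higher and 5.65% lower, and 14.2% had all OSM arrays above DMSO. The BRD8518 change at 24 h exceeded that at 6 h by 0.69 (SE 0.11), and the OSM change at 24 h exceeded that at 1 h by 0.36 (SE 0.11).

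**Figure D1:**
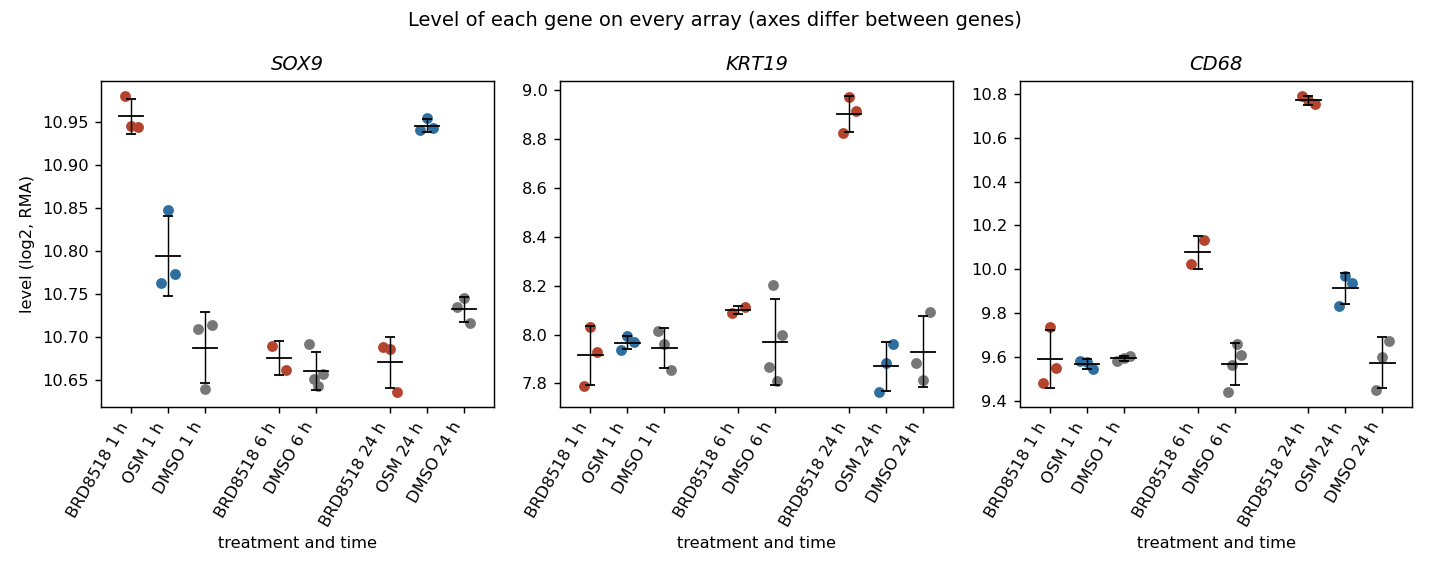
Level (log2, RMA) of SOX9, KRT19 and CD68 on each of the 24 arrays by treatment and time. Points are arrays, long bars are group means and error bars are SD. SOX9 was high in BRD8518 1 h and OSM 24 h, KRT19 in BRD8518 24 h, and CD68 in BRD8518 6 h and 24 h with OSM 24 h below them. The vertical axes differ between genes and do not start at 0.

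**Figure D2:**
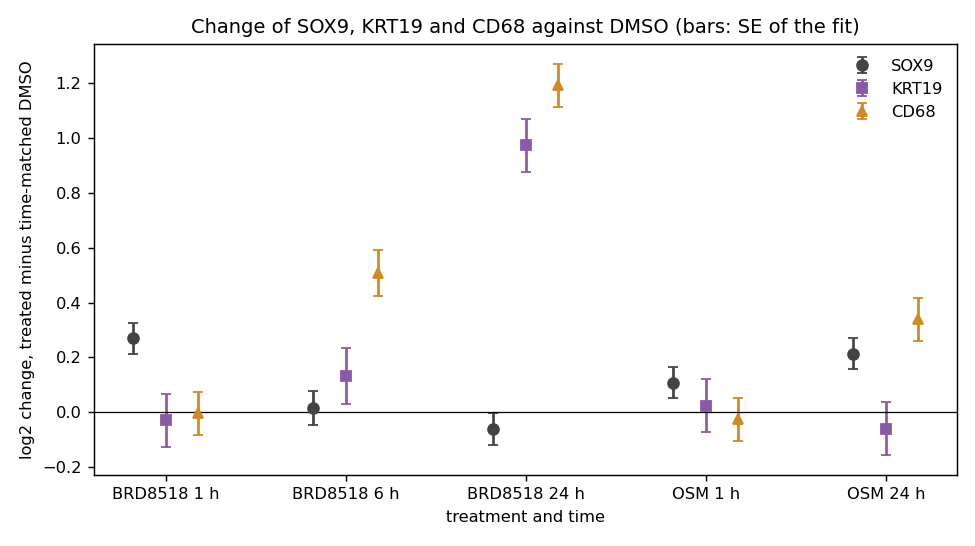
Log2 change of each gene against time-matched DMSO, with bars of 1 SE from the fit over all arrays. SOX9 had its largest changes in BRD8518 1 h (0.27) and OSM 24 h (0.21). KRT19 stood at 0.97 and CD68 at 1.19 in BRD8518 24 h.

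Ranked over the 8 groups, SOX9 ran in the order BRD8518 1 h, OSM 24 h, OSM 1 h, DMSO 24 h, DMSO 1 h, BRD8518 6 h, BRD8518 24 h and DMSO 6 h. The first 2 groups overlapped, and so did each neighbouring pair among the last 4, while the neighbouring pairs between OSM 24 h and DMSO 1 h did not. For KRT19 the order was BRD8518 24 h, BRD8518 6 h, DMSO 6 h, OSM 1 h, DMSO 1 h, DMSO 24 h, BRD8518 1 h and OSM 24 h, and each neighbouring pair after the first group overlapped. For CD68 it was BRD8518 24 h, BRD8518 6 h, OSM 24 h, DMSO 1 h, BRD8518 1 h, DMSO 24 h, OSM 1 h and DMSO 6 h. Each of the first 3 lay above the next group by more than the SD of either, and each neighbouring pair after them overlapped. Over the 8 group means the Pearson correlation was 0.92 between KRT19 and CD68, -0.43 between SOX9 and KRT19, and -0.26 between SOX9 and CD68. These are descriptions over the same arrays, and that of KRT19 with CD68 leans on their shared high group, BRD8518 24 h. A position letter in the labels, of unstated meaning, nearly follows time. In these orders and correlations, and between DMSO times below, time and letter cannot be told apart.

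Between DMSO times the 3 genes are also only described, because the DMSO arrays entered the differences that chose them. The 24 h minus 1 h difference was 0.04 for SOX9 (SE 0.06), -0.01 for KRT19 (SE 0.10) and -0.02 for CD68 (SE 0.08). The DMSO 24 h arrays of SOX9 lay above those at 1 h and 6 h, by 0.04 (SE 0.06) and 0.07 (SE 0.05), while the DMSO times overlapped for KRT19 and CD68. The share of all genes with DMSO times separated in this way was not computed, so the separation is not read as a trait of SOX9. Across all genes in limma, with Benjamini-Hochberg adjustment, 0.00672% passed between 6 h and 1 h (1 gene), and 0% passed between 24 h and 1 h and between 24 h and 6 h. At an unadjusted p under 0.05 in limma these comparisons held 947, 424 and 599 genes, which is 6.36%, 2.85% and 4.02% of all genes.

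Other bile duct, ductal and liver progenitor markers went in both directions. Of 23 such genes, 15 were measured. With BRD8518, 0 passed the test at 1 h, 4 rose and 2 fell at 6 h, and 4 rose and 3 fell at 24 h. With OSM, 2 rose and 0 fell at 1 h, and 5 rose and 2 fell at 24 h. At 24 h the list's median change was -0.05 with BRD8518 and 0.10 with OSM, beside -0.00 and 0.01 over all genes. The 4 of 15 that rose with BRD8518 at 24 h stand beside 12.1% of all genes, and the 5 of 15 with OSM beside 4.6%. The 3 of 15 lower with BRD8518 at 24 h are near the 15.6% of all genes, and the 2 lower with OSM stand beside 5.65%. For BRD8518 at 6 h the shares of all genes were 5.62% higher and 8.86% lower, and for OSM at 1 h 2.03% and 0.813%.

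Among the ductal genes that rose with BRD8518 at 24 h, KRT23, an acidic keratin like KRT19, averaged 10.44 ± 0.02 with BRD8518 and 8.94 ± 0.06 with DMSO (SD, n = 3 each), a change of 1.49 (SE 0.10, limma adjusted p = 1.35e-10). SOX4, a SOX factor that acts beside SOX9 in bile duct development in mouse, rose by 1.30 at 24 h (adjusted p = 7.2e-11) and by 0.74 at 6 h (adjusted p = 3.6e-06). CLDN4, a tight junction protein of duct epithelium, rose by 0.71 with BRD8518 at 24 h and by 0.88 with OSM at 1 h. Its DMSO means, 5.28 at 1 h and 5.16 at 24 h, lie close to the array medians. SPP1, the secreted glycoprotein osteopontin, rose under both agents at 24 h, by 0.31 with BRD8518 and 0.63 with OSM, and by 0.77 with OSM already at 1 h.

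Others fell or split by agent. ONECUT1, the HNF6 transcription factor shared by hepatocytes and biliary cells, averaged 6.05 ± 0.04 with BRD8518, 6.92 ± 0.28 with OSM and 8.27 ± 0.14 with DMSO at 24 h (SD, n = 3 each). It fell by 2.22 with BRD8518 and by 1.34 with OSM (limma adjusted p = 2.33e-11 and 2.88e-07). PROM1, the stem cell surface protein CD133, fell by 0.53 with BRD8518 at 24 h and rose by 0.57 with OSM. ANXA4, a membrane-binding annexin, fell by 0.55 with BRD8518 and by 0.78 with OSM. CD24, a surface sialoglycoprotein of progenitors, rose with OSM at 24 h, by 1.16. EPCAM, an adhesion protein of duct and progenitor cells, changed by -0.21 with BRD8518 and -0.09 with OSM at 24 h, and KRT7, a basic keratin of ducts, by -0.09 and 0.22, without passing the test. KRT7 had group means between 4.64 and 5.19, close to the array medians.

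The list changes at 6 h rested on both BRD8518 arrays. The ductal count of 6 genes past the threshold at 6 h became 2 without BRD8518 6 h replicate 1 and 1 without replicate 2, with 6 without DMSO 6 h replicate 2. BICC1, an RNA-binding protein of duct and tubule epithelium, rose by 0.78 at 6 h in the full set, a call lost when either BRD8518 array was left out, as were the 6 h calls of KRT23 (0.40), ONECUT1 (-0.54) and PROM1 (-0.34). The 6 h call of SPP1 (0.29) was lost without replicate 2. At OSM 24 h the rises of KRT23 (0.34, adjusted p = 0.0353) and CLDN4 (0.50, adjusted p = 0.0411) were lost when any array of either compared group was left out, apart from CLDN4 without DMSO 24 h replicate 3.

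Besides KRT19, 16 of 20 keratins were measured. With BRD8518, 0 passed at 1 h, 1 rose and 0 fell at 6 h, and 4 rose and 0 fell at 24 h, and with OSM 0 passed at 1 h and 2 rose and 0 fell at 24 h. The 4 of 16 with BRD8518 at 24 h stand beside 12.1% of all genes, and the 2 of 16 with OSM beside 4.6%. The 1 of 16 with BRD8518 at 6 h stands beside 5.62%. The median keratin change at 24 h was 0.12 with BRD8518 and -0.00 with OSM. The 4 that rose with BRD8518 were KRT23, KRT20, KRT15 and KRT18. KRT20, an acidic keratin of gut epithelium, rose by 0.68 (adjusted p = 4.77e-05) and KRT15, an acidic keratin of basal cells, by 0.65 (adjusted p = 0.000367). Their DMSO means, 4.45 and 4.70, lie below the array medians, where the size of a change is uncertain. KRT18, the acidic keratin of hepatocytes, rose by 0.36 with BRD8518 and by 0.37 with OSM at 24 h. KRT8, its basic partner, changed by 0.29 with BRD8518 at 24 h without passing the test. The 6 h count of 1 (KRT23) became 0 without either BRD8518 array and 2 without DMSO 6 h replicate 1 or replicate 2. At OSM 1 h the count of 0 became 1 without DMSO 1 h replicate 3. The OSM 24 h count of 2 became 1 without any array of the OSM 24 h or DMSO 24 h groups.

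Of the genes of Notch and YAP signalling, ligands, receptors, partners and targets together, several rose under BRD8518 at 6 h and 24 h, when SOX9 was near its DMSO level. Of 22 genes, 19 were measured, and with BRD8518 0 passed at 1 h, 6 rose and 0 fell at 6 h, and 10 rose and 0 fell at 24 h. With OSM 1 rose and 0 fell at 1 h, and 3 rose and 1 fell at 24 h. The median change at 24 h was 0.30 with BRD8518 and 0.14 with OSM. The 10 of 19 with BRD8518 at 24 h stand beside 12.1% of all genes, and the 6 of 19 at 6 h beside 5.62%. With OSM the 1 at 1 h stands beside 2.03%, and the 3 higher and 1 lower at 24 h beside 4.6% and 5.65%.

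JAG1, the Notch ligand, averaged 12.07 ± 0.03 with BRD8518, 11.02 ± 0.03 with OSM and 10.37 ± 0.05 with DMSO at 24 h (SD, n = 3 each), and it rose by 1.70 with BRD8518 and 0.65 with OSM (limma adjusted p = 5.86e-13 and 7.58e-06). It had risen by 0.79 with OSM at 1 h and by 1.67 with BRD8518 at 6 h. DLL4, another Notch ligand, and HEY1, a repressor that Notch induces, rose by 1.13 and 0.97 with BRD8518 at 24 h. The DMSO means of DLL4 and HEY1, 4.92 and 4.37, lie at and below the array medians. NOTCH2, the receptor tied to bile duct formation, rose by 0.30 with BRD8518 and fell by 0.33 with OSM.

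On the YAP side, TEAD1, a DNA-binding partner of YAP, rose by 0.81 with BRD8518 at 24 h. The coactivators YAP1 and WWTR1 rose by 0.46 and 0.50 with BRD8518 and by 0.41 and 0.38 with OSM at 24 h. The OSM call of YAP1 was lost when the probe sets of a gene were averaged (0.246, adjusted p = 0.0949). CCN2, a secreted target of YAP, rose by 0.93 with BRD8518 at 6 h and by 0.31 at 24 h. Without either BRD8518 6 h array the 6 h count of 6 became 3.

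Calls among the other SOX genes went in both directions. All 17 other SOX genes listed were measured, and at 1 h 0 passed the test with either agent. With BRD8518 1 rose and 1 fell at 6 h, and 2 rose and 2 fell at 24 h. With OSM 1 rose and 0 fell at 24 h. The 2 higher and 2 lower of 17 with BRD8518 at 24 h are near the 12.1% and 15.6% of all genes. The 1 higher and 1 lower at 6 h stand beside 5.62% and 8.86%, and the 1 higher with OSM at 24 h beside 4.6%. The median change was 0.06 with BRD8518 at 1 h and 0.01 with OSM at 24 h, the groups in which SOX9 was high. SOX4 and SOX13 rose with BRD8518 at 24 h (1.30 and 0.30), while SOX12, a relative of SOX4, fell by 0.77 and SOX5, a cofactor of SOX9 in cartilage, by 0.68. The call of SOX13 was lost without BRD8518 24 h replicate 1 or DMSO 24 h replicate 3. SOX18, an endothelial factor, rose with OSM at 24 h by 0.48 (adjusted p = 0.0479), and this count became 0 when any array of the compared groups was left out. The 6 h count of 2 became 1 without BRD8518 6 h replicate 2. The SOX12 call at 6 h (-0.43) was lost without either BRD8518 array, with averaged probe sets and with the compared groups alone.

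Macrophage genes gave at most 1 call in each comparison with DMSO. Besides CD68, 12 of 26 genes were measured. With BRD8518 0 passed at 1 h, and 1 rose and 0 fell at 6 h and at 24 h. With OSM 1 rose and 0 fell at 1 h and at 24 h. With BRD8518 at 24 h 1 of 12 rose, beside 12.1% of all genes higher and 15.6% lower. At 6 h 1 of 12 rose beside 5.62%, and with OSM 1 of 12 rose beside 2.03% at 1 h and 4.6% at 24 h. The list's mean level per array ran between 5.43 and 5.49 with BRD8518, 5.42 and 5.54 with OSM, and 5.40 and 5.45 with DMSO at 24 h. All 3 ranges overlapped.

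CD163, the haemoglobin scavenger receptor of macrophages, had group means from 3.56 to 3.86. MARCO, a scavenger receptor of Kupffer cells, read 4.57 with BRD8518, 4.68 with OSM and 4.66 with DMSO at 24 h, and CSF1R, the receptor that macrophages need to live, 5.82, 5.63 and 5.62 in the same order. None of the 3 passed the test in any of the 5 comparisons with DMSO. The CD163 means and the 24 h means of MARCO lie below the array medians, where the size of a change is uncertain. PTPRC is not analysed here. LAPTM5, a lysosomal protein of blood cells, rose by 0.34 with BRD8518 at 24 h (adjusted p = 0.0162), a call lost without BRD8518 24 h replicate 1 or 2 or DMSO 24 h replicate 2. TYROBP, a signalling adaptor of myeloid cells, rose by 0.41 at 6 h (adjusted p = 0.0452), a call lost without either BRD8518 6 h array or DMSO 6 h replicate 1 or 3. CD14, the lipopolysaccharide coreceptor, rose by 0.78 with OSM at 1 h and by 0.74 at 24 h (adjusted p = 0.00158 and 0.000989). Its DMSO means, 5.15 at 1 h and 5.01 at 24 h, lie close to the array medians. The OSM 1 h count of 1 became 2 without OSM 1 h replicate 2.

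Of the other genes on the lysosome list, 17 of 29 were measured. With BRD8518 0 passed at 1 h, 2 rose and 0 fell at 6 h, and 4 rose and 1 fell at 24 h, and with OSM 1 rose and 0 fell at 1 h, and 3 rose and 0 fell at 24 h. The 4 higher and 1 lower of 17 with BRD8518 at 24 h stand beside 12.1% and 15.6% of all genes, and together they are near that background. With OSM at 24 h the 3 of 17 stand beside 4.6%. The 2 of 17 with BRD8518 at 6 h stand beside 5.62%, and the 1 of 17 with OSM at 1 h beside 2.03%. The median change at 24 h was 0.12 with BRD8518 and 0.08 with OSM. CTSB, the lysosomal protease cathepsin B, averaged 7.81 ± 0.09 with BRD8518, 7.25 ± 0.04 with OSM and 6.81 ± 0.08 with DMSO at 24 h (SD, n = 3 each), and it rose by 1.00 and 0.44 (limma adjusted p = 1.58e-10 and 0.000109). Like CD68 it stood highest with BRD8518, then OSM, then DMSO, though unlike CD68 it had also risen with OSM at 1 h, by 0.34.

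SQSTM1, the autophagy receptor p62, rose by 0.70 at 6 h and 0.90 at 24 h with BRD8518. It is counted in the list at both times, though it is not a lysosome membrane protein or enzyme. CTSL, the protease cathepsin L, rose by 0.80 with BRD8518 at 24 h. CD63, a tetraspanin of late endosomes, rose by 0.40 with BRD8518 and 0.41 with OSM at 24 h, and CTSD, cathepsin D, rose by 0.30 with OSM. The CD63 call with BRD8518 was lost without BRD8518 24 h replicate 3, and that with OSM without OSM 24 h replicate 1 or 3 or DMSO 24 h replicate 1 or 2. NEU1, the lysosomal sialidase, fell with BRD8518 by 0.27. LAMP1 and LAMP2, the main lysosome membrane proteins and relatives of CD68, changed by 0.12 and 0.07 with BRD8518 and by 0.08 and 0.02 with OSM at 24 h without passing the test. The 6 h count of 2 became 1 without BRD8518 6 h replicate 1.

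Where 0 genes of a list passed in limma, few did so before adjustment. With BRD8518 at 1 h an unadjusted p under 0.05 was held by 3 of 19 Notch and YAP genes. It was held by 1 of 15 ductal, 1 of 12 macrophage and 1 of 17 SOX genes. In the lysosome, keratin, hepatocyte, and stellate, endothelial and lymphoid lists 0 genes held it. With OSM at 1 h it was held by 2 of 16 keratins and 2 of 17 SOX genes. In the stellate, endothelial and lymphoid list 1 of 13 genes held it at 6 h and 2 of 13 at 24 h with BRD8518. The share of all genes under that unadjusted threshold was not computed for these comparisons, so the counts are not read as a result.

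**Figure D3:**
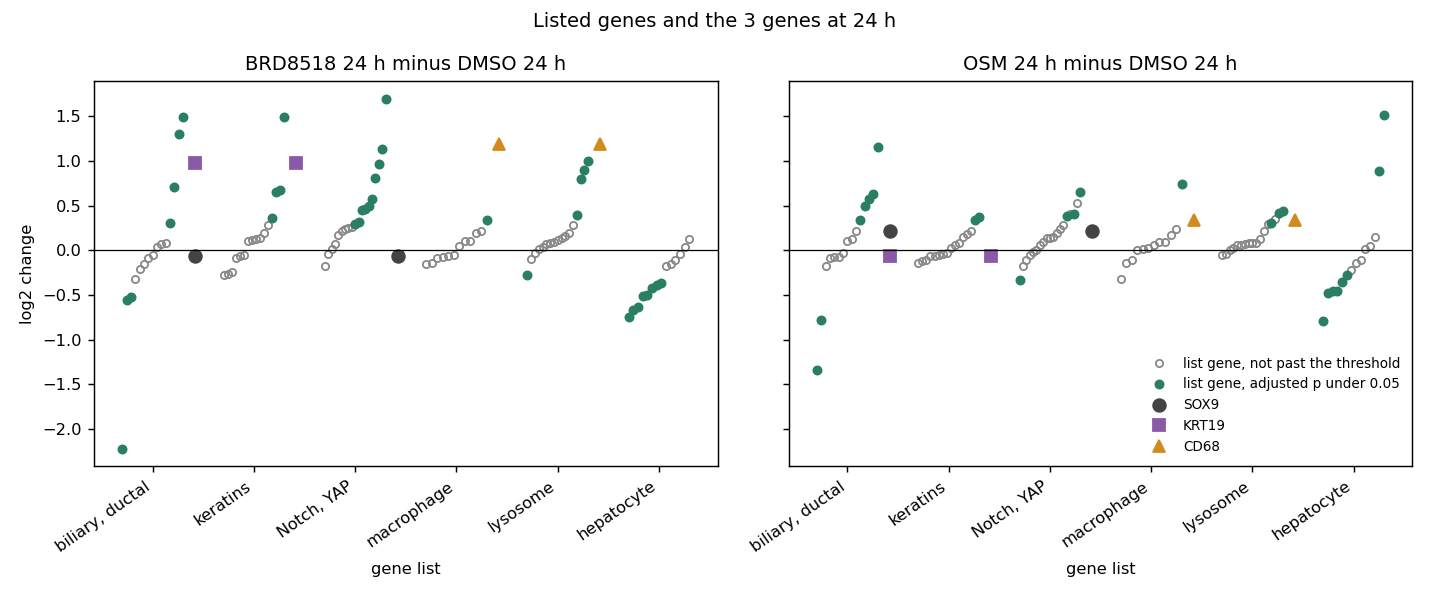
Log2 change at 24 h of each listed gene under BRD8518 (left) and OSM (right), by list, with filled points for genes past an adjusted p of 0.05 in limma and large symbols for SOX9, KRT19 and CD68. Genes in several lists appear in each. The large symbols were chosen for their responses, and ductal genes lay on both sides of 0 under both agents.

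Markers of the line itself were read as a check of the label. Of 20 hepatocyte and hepatoma markers, 14 were measured, with a mean level per array between 10.1 and 10.5 in all groups. HNF4A is not analysed here. ALB, albumin, averaged 12.20 with BRD8518, 12.16 with OSM and 12.38 with DMSO at 24 h and did not pass the test. With BRD8518 0 passed at 1 h, 1 rose and 4 fell at 6 h, and 0 rose and 8 fell at 24 h, the time at which KRT19 and CD68 were highest. With OSM 2 rose and 1 fell at 1 h, and 2 rose and 6 fell at 24 h. The 8 of 14 that fell with BRD8518 at 24 h stand beside 15.6% of all genes. The 4 that fell at 6 h stand beside 8.86%, a share that rose without DMSO 6 h replicate 2 (2182 genes rather than 1319). The 6 that fell with OSM at 24 h stand beside 5.65%, and the 1 that fell at 1 h beside 0.813%. The 1 that rose with BRD8518 at 6 h stands beside 5.62%. With OSM the 2 that rose stand beside 2.03% at 1 h and 4.6% at 24 h. The median change at 24 h was -0.38 with BRD8518 and -0.18 with OSM.

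TTR, the thyroxine carrier, fell by 0.75 with BRD8518 and by 0.46 with OSM at 24 h, and APOA1, the main HDL protein, by 0.63 and 0.79. FOXA1, a pioneer factor of liver, fell by 0.67 and 0.45, and TF, transferrin, by 0.51 and 0.35. The fibrinogen chains FGA and FGB split by agent: they fell by 0.50 and 0.42 with BRD8518 and rose by 0.89 and 1.51 with OSM. At 6 h the count of 5 became 3 without BRD8518 6 h replicate 1 and 2 without replicate 2. FOXA2, which fell at 6 h, lost its call without either BRD8518 array or DMSO 6 h replicate 1, 3 or 4. The part of these marker shifts in the levels of SOX9, KRT19 and CD68 was not tested.

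Of 24 stellate, endothelial and lymphoid markers, 13 were measured, with mean levels per array between 4.69 and 5.02. With BRD8518 0 passed at any time, beside 12.1% of all genes higher and 15.6% lower at 24 h. At 24 h 1 passed without DMSO 24 h replicate 1 or 2 and up to 3 under other alternatives (3 with array weights), and at 6 h 1 passed without DMSO 6 h replicate 2 and with array weights. With OSM 1 rose and 0 fell at 1 h (2.03% and 0.813% of all genes), and 1 rose and 1 fell at 24 h (4.6% and 5.65%). These were LYVE1, a hyaluronan receptor of sinusoidal and lymphatic endothelium, which rose by 0.83 at 1 h and 2.70 at 24 h, and PECAM1, an endothelial adhesion protein, which fell by 0.43 at 24 h.

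The genes whose 8 group means ran most like each of the 3 were sought among genes whose means spanned at least 0.5. For CD68, which spanned 1.20, the 5 with the highest Pearson correlation were TMC7 (0.997), GPAT3 (0.996), SPRYD3 (0.995), NAGS (0.994) and BCL2L1 (0.993) among 4450 candidates. GPAT3 makes lysophosphatidic acid for triglyceride synthesis, NAGS makes the activator of the urea cycle, and BCL2L1 blocks apoptosis. TMC7 changed by 1.34 with BRD8518 at 6 h, 3.60 with BRD8518 at 24 h and 0.80 with OSM at 24 h. By rank correlation 2 of the 5 were kept, and over the 24 arrays 3 were kept.

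For KRT19, which spanned 1.03, they were CD22 (0.996), LAIR2 (0.993), GTF2IRD1 (0.993), AXL (0.992) and ADAM19 (0.991). CD22 is a B cell lectin, LAIR2 a secreted collagen receptor, AXL a receptor tyrosine kinase and ADAM19 a membrane metalloprotease. AXL changed by 3.42 with BRD8518 at 24 h. LAIR2 had a mean of 7.31 with BRD8518 and 2.84 with DMSO at 24 h, the DMSO mean far below the array medians, so no size is given for its change. With 1 group far from the rest, a correlation over 8 points mostly reads that group, and 0 of the 5 were kept by rank and 2 over the 24 arrays.

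SOX9 spanned only 0.30, and its nearest genes correlated less. They were MIR3137 (0.92), SPRR2C (0.88), MIR3127 (0.85), FOXP2 (0.84) and LINC00920 (0.83) among 4451 candidates, and the microRNA names stand for longer transcripts of those loci rather than the mature forms. FOXP2, a forkhead factor, changed by 0.18 with BRD8518 at 1 h and 0.34 with OSM at 24 h. By rank 0 of the 5 were kept, and over the 24 arrays 1 was.

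**Figure D4:**
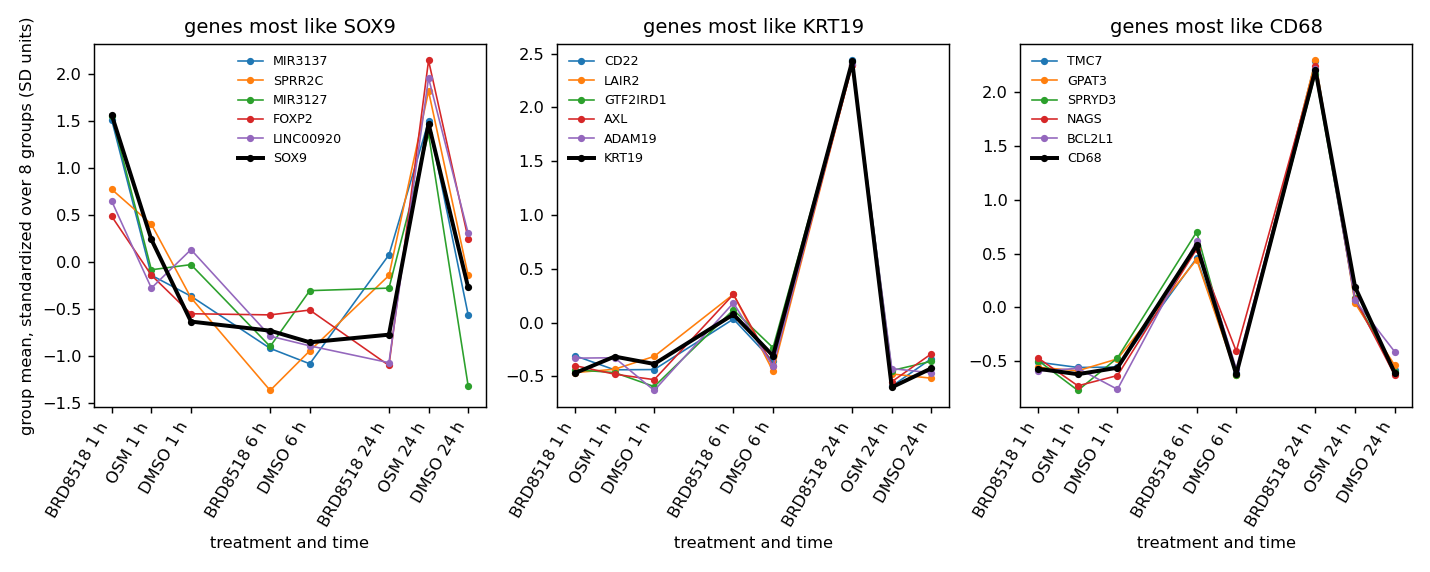
Group means of SOX9, KRT19 and CD68 (thick black lines) and of the 5 genes most like each, standardized over the 8 groups to a mean of 0 and an SD of 1. Lines join the values of 1 gene. CD68 and its 5 genes share steps at BRD8518 6 h, BRD8518 24 h and OSM 24 h, KRT19 and its 5 share the peak at BRD8518 24 h, and the lines around SOX9 scatter more.

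All 3 genes lie on chromosome 17, and their protein-coding neighbours were read in RefSeq (GRCh38.p14, used for the order of genes only) after the values were known. Around SOX9, KCNJ2, KCNJ16 and SLC39A11 are not analysed here, and SSTR2 lies beyond SLC39A11. Beside CD68, EIF4A1 and SENP3 are not analysed here, so only the neighbours on its other side were read. Next to KRT19 in the type I keratin cluster, KRT15 rose by 0.65 with BRD8518 at 24 h (SE 0.13, limma adjusted p = 0.000367). KRT13, KRT9 and KRT14 changed by -0.06, 0.20 and 0.12 and did not pass the test. Keratins are alike in sequence, so probe sets may share signal.

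Beside CD68, MPDU1, a gene of dolichol sugar use, fell by 0.28 with BRD8518 at 24 h (SE 0.09, adjusted p = 0.020), a call lost without BRD8518 24 h replicate 1 or DMSO 24 h replicate 1. SOX15 changed by -0.00 there and did not pass. CD68 overlaps the antisense gene MPDU1-AS1 in RefSeq, and no source used here states whether its probes separate the strands. Of the neighbours of SOX9, SSTR2, a somatostatin receptor, changed by 0.23 with BRD8518 at 1 h and 0.08 with OSM at 24 h without passing the test (limma adjusted p = 0.894 and 0.779).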

How the data were processed

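Affymetrix whole-transcript arrays, 24 in all, read HepG2 RNA from 8 combinations of treatment and time. The deposited values are log2 intensities made by the authors with RMA in oligo, per the submitters' processing notes; no source used here gives versions or the genome build of the probe sets. RMA shrinks changes near background. The log2 values, 0.913 to 13.7, were used as deposited. The platform's annotation table named 1 symbol for 16098 probe sets, several for 0 and none here for 37519; all 16098 gene identifiers were found in RefSeq. For 779 genes with several probe sets the one with the highest mean was kept, which left 14884 genes.

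R 4.3.3 and limma 3.58.1 fitted all arrays together, with a mean for each group and empirical Bayes moderation (prior degrees of freedom 5.3), 2-sided, adjusted by Benjamini-Hochberg over all genes of a contrast. Only genes other than the 3 chosen ones are called risen or fallen, where that adjusted p was under 0.05. The fit was tested on simulated data. Python 3.11 with matplotlib 3.10.9 made the figures.

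SOX9, KRT19 and CD68, the 8 gene lists and the tests were chosen with earlier results of these data known. Lists share genes and were counted without the 3 genes. From each list up to 4 genes per direction were named, the largest changes that passed the test with every treated array beyond every DMSO array, besides fixed marker checks; genes of like pattern were the 5 with the highest Pearson correlation. Position codes in the labels carry a letter whose meaning is not stated. The letter nearly follows time: it is A at 24 h apart from DMSO 24 h replicate 3 (B), B or C at 1 h, and D at 6 h. Differences between times therefore cannot be told apart from the letter. The letter was tried as a random block and as a fixed term. Other alternatives were a filter at the median level, 2 centrings, quantile normalization, trend and robust moderation, the compared groups only, weights for arrays, averaged probe sets, and leaving out each array.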

Additional observations from a re-analysis of the deposited data

Results flagged for a closer look

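On DMSO 6 h replicate 2, 13 listed genes lay far from the other 3 DMSO 6 h arrays, by the gap to the nearest array as a share of the group's range: CLDN4 (0.905), CTSL (0.912), CD63 (0.927), CTSD (0.872), SOX12 (0.92), SOX13 (0.889), SOX18 (0.94), TAT (0.901), APOA1 (0.832), FGB (0.887), FGA (0.912), LAMP1 (0.901) and LAMP2 (0.843). The rule was run only on the 3 genes and the list genes picked for naming, and the share over all genes was not computed. Chance marks about 1 in 20 groups, but genes on the same array do not vary independently, so the 13 are not set against that rate. SOX9, KRT19 and CD68 were not marked on any array, though only groups of 4 or more could be, which leaves DMSO 6 h.

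In the following pairs every treated array lay on opposite sides of its DMSO arrays, and the differences between the paired changes were not tested. With so few arrays such separation is common: all treated arrays lay above DMSO for 7.97% of genes with BRD8518 at 1 h and 19.8% at 24 h. The share of all genes with opposite sides was not computed. Several sides did not pass the test, among them BICC1 at 1 h (-0.12), NOTCH2 (-0.12) and SOX13 (-0.17) at 6 h with BRD8518, and HEY1 with OSM at 24 h (-0.18). SOX9 was higher with BRD8518 at 1 h and lower at 24 h (difference 0.33), and at 24 h lower with BRD8518 and higher with OSM (-0.28); its place below DMSO at 24 h turned to overlap under 2 scalings. With BRD8518 between times, BICC1 was lower at 1 h and higher at 6 h (-0.89), NOTCH2 lower at 6 h and higher at 24 h (-0.42), SOX13 lower at 6 h and higher at 24 h (-0.47), SOX5 higher at 1 h and lower at 24 h (0.91), and TAT higher at 6 h and lower at 24 h (0.91). With OSM between 1 h and 24 h, SOX13 was first higher and then lower (0.23), and FOXA2 first lower and then higher (-0.39). At 24 h, higher with BRD8518 and lower with OSM were LAPTM5 (0.66), HEY1 (1.15), NOTCH2 (0.63) and SOX13 (0.43). Lower with BRD8518 and higher with OSM at 24 h were PROM1 (-1.1), SOX18 (-0.65), FOXA2 (-0.16), FGB (-1.93) and FGA (-1.39). At 1 h CCN2 was higher with BRD8518 and lower with OSM (0.53), and FGA was lower with BRD8518 and higher with OSM (-0.66).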

How the results depend on the processing

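KRT19 and CD68 at BRD8518 24 h kept their direction and size under every alternative run, 0.92 to 1.06 and 1.13 to 1.24, as did CD68 at BRD8518 6 h (0.45 to 0.58) and OSM 24 h (0.28 to 0.39) and SOX9 at BRD8518 1 h (0.25 to 0.29). Of all values set against an alternative for the 3 genes, 464 moved by less than the spread between arrays or, for DMSO between times, kept their side of the threshold, and 13 moved by more. No difference whose groups did not overlap changed sign, while 7 of 21 differences from DMSO or OSM, all with overlapping groups, and 6 of 9 between DMSO times lay on both sides of 0 over the alternatives: CD68 BRD8518 1 h minus DMSO ran between -0.1138 and 0.0506, KRT19 BRD8518 1 h minus DMSO between -0.1562 and 0.0348, and KRT19 OSM 24 h minus DMSO between -0.1183 and 0.0205. With the position letter as a fixed term, which leaves replicate 1 to set BRD8518 1 h, the 1 h BRD8518 values were -0.114 (CD68) and -0.156 (KRT19) against DMSO and -0.0885 and -0.180 against OSM. Quantile normalization gave SOX9 changes of -0.0255 for BRD8518 24 h, 0.0609 for OSM 1 h and 0.23 for OSM 24 h against DMSO, and 0.22 at 1 h and -0.25 at 24 h for BRD8518 minus OSM. Centring on all probe sets gave 0.20 for SOX9 in OSM 24 h. Centring on the tested genes, chosen after seeing the data, gave SOX9 0.0916 for BRD8518 6 h and -0.0321 for BRD8518 24 h against DMSO, and -0.24 for BRD8518 minus OSM at 24 h. The cause was not tested. For named genes, a call was lost in 93 pairs of gene and alternative and reversed in 0. In 112 cases a count moved by over 1.5 times, or to or from 0. Those counts were of list genes, of all genes past the threshold, or of kept genes of like pattern. With the compared groups alone, 16 BRD8518 6 h calls of named genes were lost. Counts of genes past the threshold ranged over the alternatives between 15 and 81 (BRD8518 1 h, 38 in the report's fit), 452 and 3466 (6 h, 2155), 3514 and 5585 (24 h, 4122), 274 and 1125 (OSM 1 h, 423), and 1107 and 3068 (OSM 24 h, 1526); array weights gave all 5 highs, and the compared groups alone gave the low at 6 h. At 6 h, 1349 or 1208 genes passed without BRD8518 replicate 1 or 2, and 3345 without DMSO replicate 2. No paired analysis was possible because the labels give no replicate numbers; these follow accession order. The 6 h groups share 1 position letter, so the fixed term was not run there.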
